A study of Mus musculus with 6 samples.

Results

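Macrophage marker genes were read out in RNA-seq libraries of sorted bone marrow neutrophils of C57BL/6 mice. The set holds 10 genes, listed by symbol and found by their Ensembl identifiers, of 41388 genes in the deposited tables. They are Adgre1, C1qa, C1qb, C1qc, Axl, Vcam1, Mertk, Mrc1, Cd5l and Cd163, and each matched exactly 1 identifier. Neutrophils had been loaded with 250 nM DiBAC4(3), a dye that reports membrane potential, and all had been stimulated with 100 nM ionomycin, a calcium ionophore, so no library of unstimulated cells is part of the comparison. Between 2 and 4 minutes later 20000 cells were sorted as depolarized or as polarized, and each population is represented by 3 libraries. The series describes 3 biological replicate pairs of 1 depolarized and 1 polarized library each, here called A, B and C in the order of their replicate codes, and a library is called by its pair. Coordinates below are in GRCm38. The sources used here do not give how the neutrophils were isolated or how many mice entered a library.

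Macrophages of the bone marrow take up dying neutrophils and the nuclei that maturing red cells expel, and they can form islands with erythroblasts. Complement C1q, which starts the classical complement pathway and coats dying cells, is made mostly by macrophages and related cells, from A, B and C chains that are encoded by separate neighbouring genes. Axl and Mertk are receptor tyrosine kinases that bind dying cells through bridging proteins. Adgre1, an adhesion G protein-coupled receptor, is the classical surface marker of mouse macrophages but is also carried by mouse monocytes and eosinophils.

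Total counts ran from 16904969 to 20381489 per library. Neutrophil transcripts dominated all of them: S100a8 stood between 74182 and 85447 CPM (counts scaled to the library total) in depolarized libraries and between 84267 and 105753 CPM in polarized ones. At this depth 3 counts, used as the detection floor, correspond to 0.147 to 0.177 CPM in a single library. Floors and counting intervals cover counting error only, since PCR copies could not be told apart.

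Adgre1 and the C1q genes lay on opposite sides. Adgre1 was higher in the depolarized library of all 3 pairs, by a fitted 1.4-fold, whereas C1qa, C1qb and C1qc were lower in the depolarized library of all 3 pairs, by a fitted 2.14-fold, 2.63-fold and 1.89-fold. The 95% counting interval of the ratio (exact binomial) included 1 for C1qa in pairs B and C, C1qb in pair A and C1qc in pairs A and C. It excluded 1 in the remaining pairs of these genes and in every pair for Adgre1. Axl and Cd5l were also lower in 3 of 3 pairs, while Vcam1, Mertk, Mrc1 and Cd163 differed in sign between pairs. None of the 10 genes passed the test, the quasi-likelihood test of edgeR with pair as a block term and Benjamini-Hochberg adjustment over the 9971 genes tested. At an adjusted p under 0.05 it called 0.321% of all genes, 0.0802% higher and 0.241% lower in depolarized cells. DESeq2 with the same block called 16 genes higher and 23 lower, and again 0 members. All 10 members had passed the filter on low counts, 9 were fitted below 0, as were 50.4% of all genes tested, and 5 had an unadjusted p under 0.05, against 6.58% of all genes. Of these, C1qa, C1qb, Axl and Vcam1 were lower (background 3.32%) and Adgre1 was higher (background 3.26%). As the members were chosen with earlier results of these data known, these shares are a description and not a test.

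The upstream sequences of C1qb and C1qc are shown. Both genes were lower in the depolarized library of every pair, as was their neighbour C1qa, whose upstream sequence is not shown. They are on the minus strand of chromosome 4 in GRCm38.p6, from RefSeq, at chr4:136886201-136886450 for C1qb and chr4:136893066-136893164 for C1qc, and end just before the first annotated exon. Capitals mark GAGGAA, the core of the site bound by the myeloid factor PU.1, and TGCTGA, the core of a MAF factor site, each searched on both strands.
C1qb: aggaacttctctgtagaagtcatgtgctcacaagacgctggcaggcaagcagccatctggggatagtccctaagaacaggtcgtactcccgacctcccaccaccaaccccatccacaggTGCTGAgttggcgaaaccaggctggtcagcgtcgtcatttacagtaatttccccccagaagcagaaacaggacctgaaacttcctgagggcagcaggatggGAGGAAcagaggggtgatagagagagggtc
C1qc: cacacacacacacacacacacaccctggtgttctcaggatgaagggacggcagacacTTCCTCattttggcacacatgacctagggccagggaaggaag
GAGGAA lies on the strand shown in C1qb and on the opposite strand in C1qc, and TGCTGA occurs once, in C1qb. Over the 250 bases upstream of the RefSeq start, 23.3% of 32851 windows of all genes hold GAGGAA and 16.1% hold TGCTGA, so both motifs are common. The C1qc sequence shown holds only 99 bases, so it is not of like length with a window of 250 bases. Of the 7 members with an entry in the RefSeq table, 5 hold GAGGAA (Axl, C1qb, C1qc, Cd5l and Mrc1) and 2 hold TGCTGA (C1qb and Cd5l). A match is a stretch of letters and not evidence of binding.

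**Figure D1:**
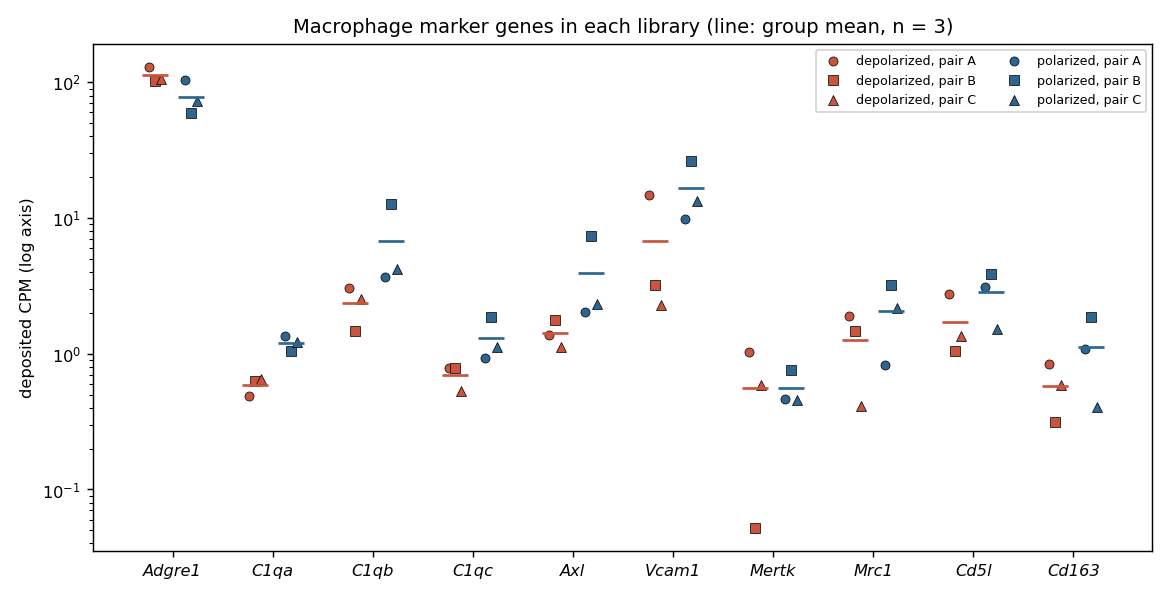
Deposited CPM on a log axis for the 10 macrophage marker genes in every library, with depolarized libraries left of polarized ones, a symbol per pair and a line at each group mean (n = 3). Adgre1 sits near 100 CPM and higher in depolarized cells by its mean, and the polarized library of pair B (blue square) is the highest of the 6 for C1qb, C1qc, Axl, Vcam1, Mrc1, Cd5l and Cd163.

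Adgre1 (ENSMUSG00000004730, chromosome 17, 57358686 to 57483529) was by far the most abundant member. It was at 129.8, 103.0 and 106 CPM in the depolarized libraries A, B and C, against at 103.3, 59.1 and 72.9 CPM in the polarized ones, with 6409 and 4433 counts over the groups. The groups just overlapped, since the depolarized library of pair B lay marginally below the polarized library of pair A. The group means were 113 ± 14.7 CPM in depolarized and 78.4 ± 22.6 CPM in polarized cells (SD, n = 3 each). Within the pairs the difference, depolarized minus polarized on the log2 scale, was 0.39, 0.76 and 0.31. The fitted log2 fold change was 0.49 (SE 0.18, edgeR adjusted p 0.499.) Without pair C it was 0.57 and was called (edgeR adjusted p 0.000103), in a fit that called 4.95% of genes higher in depolarized cells. In bulk RNA of sorted cells, fewer cells of a type and less RNA per cell cannot be told apart, here and below.

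The C1q chain genes lie side by side on chromosome 4, all on the minus strand, within 136880129 to 136898803, a stretch of 18675 bases. C1qa (ENSMUSG00000036887) encodes the A chain. It was at 0.491, 0.625 and 0.651 CPM in the depolarized libraries A, B and C, against 1.35, 1.06 and 1.22 CPM in the polarized ones. These levels rest on 33 counts over the depolarized and 68 over the polarized libraries, and the groups did not overlap. C1qa gave the most even differences of the 3 chains, with -1.23, -0.70 and -1.02 within pairs A, B and C on the log2 scale, a fitted log2 fold change of -1.10 (SE 0.52, edgeR adjusted p 0.753.) Counting error alone is wide at these numbers: in pair B the depolarized over polarized CPM ratio was 0.592 with a 95% interval of 0.260 to 1.30 (exact binomial), and of the 3 pairs the interval lay below 1 in pair A alone.

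C1qb (ENSMUSG00000036905), the gene of the B chain, carried most of the C1q counts. It stood at 3.04, 1.46 and 2.54 CPM in the depolarized libraries A, B and C, against at 3.67, 12.6 and 4.18 CPM in the polarized ones, with 133 and 368 counts over the groups. The groups did not overlap, but the depolarized library of pair A and its polarized partner were close, and the polarized library of pair B stood far above all others. Its differences within pairs A, B and C were -0.20, -3.05 and -0.92 on the log2 scale. The fitted value was -1.40 (SE 0.44, edgeR adjusted p 0.351), and it was -0.57 without pair B (edgeR adjusted p 1.0). In pair A the CPM ratio was 0.828 with a 95% counting interval of 0.579 to 1.18, while in pairs B and C the interval lay below 1.

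C1qc (ENSMUSG00000036896) encodes the C chain. Its levels were 0.785, 0.782 and 0.532 CPM in the depolarized libraries A, B and C, against 0.931, 1.88 and 1.12 CPM in the polarized ones, from 40 and 72 counts. Again the groups did not overlap, and the polarized library of pair B was the highest. C1qc differed by -0.16, -1.19 and -1.15 within pairs A, B and C, with a fitted log2 fold change of -0.92 (SE 0.51, edgeR adjusted p 0.871). The CPM ratio was 0.843 in pair A (95% counting interval 0.402 to 1.75) and 0.475 in pair C (0.192 to 1.07). Only in pair B did the interval lie below 1. Per kilobase of exon, C1qb was the highest of the chains in every library, at 2.23 to 5.93 times the RPKM of C1qa in depolarized and 2.61 to 11.4 times in polarized libraries, where 11.4 is the polarized library of pair B. The C1qa and C1qc RPKM were closer to each other, with C1qa at 1.16 to 2.27 times C1qc in depolarized and 1.04 to 2.68 times in polarized libraries.

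**Figure D2:**
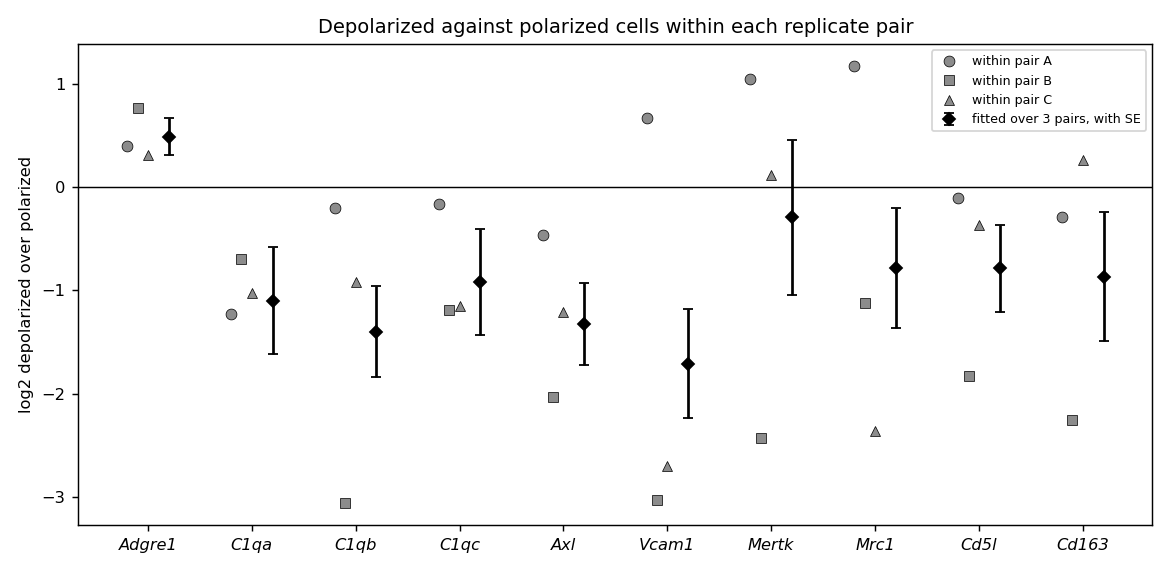
Log2 difference of depolarized over polarized cells within pairs A, B and C (grey symbols) and the value fitted over the 3 pairs with its standard error (black diamond) for each gene. Adgre1 is above 0 in 3 of 3 pairs, C1qa, C1qb, C1qc, Axl and Cd5l are below 0 in 3 of 3, and Vcam1, Mertk, Mrc1 and Cd163 lie on both sides.

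Relative to Adgre1 in the same library, a ratio that does not depend on library scaling, the C1q genes were lower in depolarized cells in every pair. This direction follows from the signs given above, with Adgre1 higher and the C1q genes lower in every pair. It is therefore not a separate result, and the ratio adds only the sizes. C1qa had 3.78, 6.07 and 6.16 counts per 1000 Adgre1 counts in the depolarized libraries A, B and C, against 13, 17.9 and 16.8 in the polarized ones. C1qb had 23.4, 14.2 and 24.1 per 1000 in depolarized and 35.6, 213.5 and 57.3 per 1000 in polarized libraries. C1qc had 6.05, 7.59 and 5.04 per 1000 in depolarized and 9.02, 31.8 and 15.4 per 1000 in polarized libraries. No depolarized library reached the lowest polarized one for any of the chains. The mean within-pair difference of the ratio was -1.60, -1.92 and -1.42 on the log2 scale for C1qa, C1qb and C1qc. A two-sided exact permutation test within the 3 pairs gave p = 0.25 for each of the chains, and one over 3 against 3 libraries gave p = 0.1. These are the smallest values that the tests allow, so neither can pass 0.05, and adjustment over the 3 chains leaves them as they are.

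**Figure D3:**
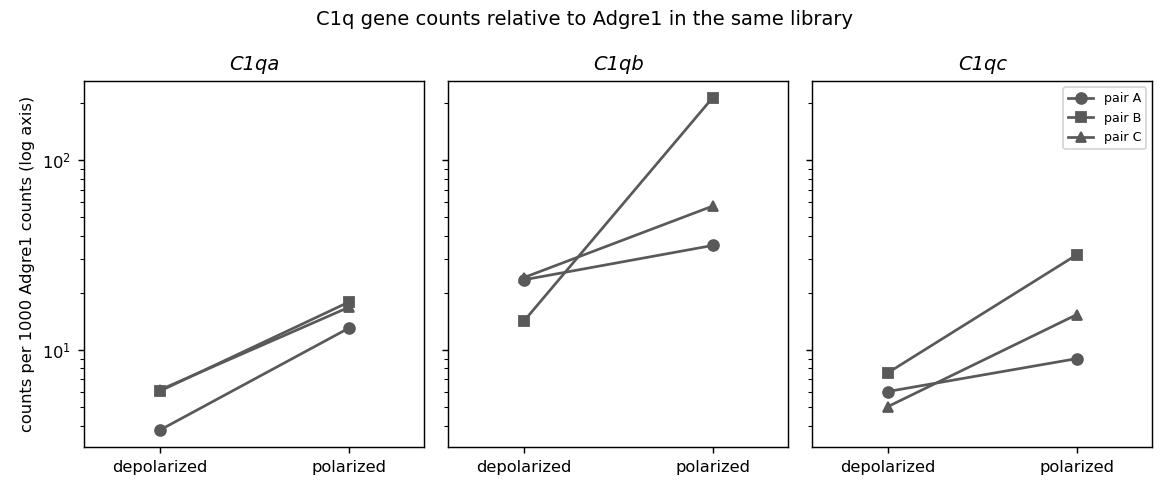
Counts of C1qa, C1qb and C1qc per 1000 Adgre1 counts in the same library on a log axis, with lines joining the depolarized (left) and polarized (right) library of a pair. All lines slope upwards to the polarized library, most steeply for C1qb in pair B (14.2 in the depolarized and 213.5 in the polarized library).

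Across the 6 libraries the log2 CPM of each C1q gene was negatively correlated with that of Adgre1, but none of the correlations passed a test. With Adgre1 higher and the C1q genes lower in the depolarized library of every pair, r over both groups in part repeats that difference. It is therefore not a separate result on whether the genes move together within a group. Pearson's r was -0.50 for C1qa, -0.71 for C1qb and -0.77 for C1qc, with exact permutation p of 0.354, 0.110 and 0.0764 and adjusted p of 0.620, 0.329 and 0.329 over the 9 members correlated with Adgre1. Spearman's rho was -0.60, -0.60 and -0.71 for C1qa, C1qb and C1qc (exact permutation p 0.242, 0.242 and 0.136, adjusted 0.435 for each). Without the depolarized library of pair A and the polarized library of pair B, which lay farthest from the median of Adgre1, r was -0.42, -0.39 and -0.78. Among the other members Axl had the strongest relation with Adgre1, with r = -0.90 (exact permutation p 0.0194, adjusted 0.175) and rho = -0.89 (exact permutation p 0.0333, adjusted 0.300), and r = -0.76 without the same libraries. The libraries form pairs and are not fully independent, and a group holds too few of them for a correlation of its own.

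Adgre1 left out, since its relation with C1qb is given above, C1qb was positively correlated with the other 8 members. No relation passed after adjustment, and the difference between the groups enters r here too. The relations with C1qb were computed after its values were seen. With C1qb, r was 0.87 for C1qc (exact permutation p 0.0292), 0.87 for Axl (0.0306), 0.82 for Vcam1 (0.0333), 0.82 for Cd163 (0.0417) and 0.79 for Cd5l (0.0458), each with an adjusted p of 0.0733 over 8 members. Spearman's rho with C1qb was 0.94 for C1qc and 0.83 for Axl (exact permutation p 0.0167 and 0.0583, adjusted 0.133 and 0.156), 0.77 for Vcam1, 0.66 for Cd163 and 0.83 for Cd5l (0.103, 0.175 and 0.0583, adjusted 0.200, 0.200 and 0.156). Without both libraries of pair B, which were farthest from the median of C1qb, r was 0.99 for C1qc, 0.99 for Axl and 0.77 for Vcam1, but 0.25 for Cd5l and -0.20 for Cd163. Mertk had r = 0.63 with C1qb (exact permutation p 0.213, adjusted 0.267) and r = -0.31 without pair B, so the relations with Cd5l, Cd163 and Mertk rest on pair B. Mrc1 had r = 0.58 (exact permutation p 0.233, adjusted 0.267) and 0.76 without pair B. For C1qa, r with C1qb was 0.55 (exact permutation p 0.268, adjusted 0.268) and rho was 0.66 (exact permutation p 0.175, adjusted 0.200), and r was 0.79 without pair B.

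Axl (ENSMUSG00000002602, chromosome 7, 25757273 to 25788705), the receptor tyrosine kinase, was at 1.37, 1.77 and 1.12 CPM in the depolarized libraries A, B and C. In the polarized libraries it was at 2.02, 7.40 and 2.35 CPM, so the groups did not overlap, and pair B stood apart through its polarized library. The sums were 81 and 211 counts in the depolarized and polarized groups. Axl differed by -0.46, -2.03 and -1.21 within pairs A, B and C. Its fitted log2 fold change was -1.32 (SE 0.39, edgeR adjusted p 0.305.) Axl and the C1q genes are the 4 members whose groups did not overlap, all lower in depolarized cells, against a background of 3.14% of tested genes, and 0 members were higher without overlap (background 7.28%). Below 0 in 3 of 3 pairs were 5 members, against 12.1% of tested genes, and 1 was above 0 in 3 of 3, against 12.9%. The members were chosen with earlier results of these data known, and the C1q genes are neighbours. These shares are therefore a description and not a test.

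Mertk (ENSMUSG00000014361, chromosome 2, 128698956 to 128802894), the related receptor, did not follow Axl. It had 21, 1 and 10 counts in the depolarized libraries A, B and C, against 9, 13 and 9 in the polarized ones, or 1.03, 0.0521 and 0.592 CPM against 0.466, 0.763 and 0.459 CPM. The single count in pair B is below the floor, and without pair B the fitted log2 fold change changed sign, to 0.70, from -0.29 ± 0.75 (SE) with all pairs (edgeR adjusted p 1.0 in both fits). Of the partners of these receptors, Tyro3, the third receptor of the family, and Gas6, a bridging ligand, had 0 counts in all 6 libraries, and the other ligand gene Pros1 summed to 0 counts in depolarized and 9 in polarized cells, a gene picked with its values known.

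Vcam1 (ENSMUSG00000027962, chromosome 3, 116110020 to 116129688), an adhesion molecule of stroma and marrow macrophages that binds integrins, had the largest fitted difference of the members with all pairs, but not without pair B or pair C or without the block. It was at 14.9, 3.23 and 2.31 CPM in the depolarized libraries A, B and C, against at 9.78, 26.5 and 13.3 CPM in the polarized ones, from 405 and 901 counts. The groups overlapped because the depolarized library of pair A was high. Within pair A the difference was 0.67 on the log2 scale, whereas pairs B and C gave -3.03 and -2.70. The fitted log2 fold change was -1.71 (SE 0.53, edgeR adjusted p 0.333), -2.92 without pair A (edgeR adjusted p 6.03e-12), -0.93 without pair B (edgeR adjusted p 1.0) and -1.06 without pair C (edgeR adjusted p 7.68e-05). The fit without pair A called 0.737% of genes lower, and the fit without pair C 5.13%. In fits without a pair the spread of the single gene hardly enters the p-value, as described below, so they are less cautious. A fit with the spread estimated robustly gave Vcam1 a wider SE, 1.25 (edgeR adjusted p 1.0).

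The scavenger genes among the members, Mrc1, Cd5l and Cd163, stayed below 4 CPM in every library. Mrc1, the mannose receptor gene (ENSMUSG00000026712, chromosome 2, 14229414 to 14332057), was at 1.91, 1.46 and 0.414 CPM in the depolarized libraries A, B and C, against at 0.828, 3.23 and 2.19 CPM in the polarized ones. Its direction differed between pairs, with 1.17, -1.12 and -2.35 on the log2 scale, and its fitted log2 fold change was -0.78 (edgeR adjusted p 1.0). Leaving out pair C gave -0.04 and leaving out pair A gave -1.78 (edgeR adjusted p 0.982 and 0.121). Cd5l (ENSMUSG00000015854, chromosome 3, 87357881 to 87371074), which encodes a secreted scavenger receptor protein that macrophages make, was at 2.75, 1.04 and 1.36 CPM in depolarized and at 3.10, 3.88 and 1.53 CPM in polarized libraries A, B and C. Cd5l was lower in depolarized cells in every pair, by -0.11, -1.82 and -0.37 on the log2 scale, so most of its difference came from pair B, and the groups overlapped. Its fitted log2 fold change was -0.78 ± 0.42 (SE, edgeR adjusted p 0.862) and -0.24 without pair B. Cd163 (ENSMUSG00000008845, chromosome 6, 124304651 to 124330527), the receptor for haemoglobin bound to haptoglobin, was at 0.834, 0.313 and 0.592 CPM in depolarized and at 1.09, 1.88 and 0.408 CPM in polarized libraries A, B and C. The groups overlapped, and the fitted log2 fold change of Cd163 of -0.87 ± 0.62 (SE, edgeR adjusted p 0.986) became -0.04 without pair B.

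On the RPKM scale, which is per kilobase of listed exon length, the order of the mean levels was nearly the same in both populations. Adgre1 led with 34.8 ± 4.54 RPKM in depolarized and 24.2 ± 6.96 RPKM in polarized cells (SD, n = 3), well clear of the rest. C1qb followed with 2.16 ± 0.744 and 6.27 ± 4.62 RPKM and Vcam1 with 2.01 ± 2.07 and 4.86 ± 2.59 RPKM in depolarized and polarized cells, which did not differ from each other beyond their spread. The annotation release GENCODE M21 gives Vcam1 8870 exon bases, against 3398 in the deposited tables, so its RPKM depends on the annotation. Cd5l (0.843 ± 0.445 and 1.39 ± 0.587 RPKM) and C1qa (0.566 ± 0.0827 and 1.16 ± 0.139 RPKM) came next and were within their spread of each other. C1qc, at 0.362 ± 0.0751 RPKM in depolarized and 0.679 ± 0.260 RPKM in polarized cells, and Axl, at 0.283 ± 0.0649 and 0.779 ± 0.599 RPKM, exchanged places between the populations and were also within their spread. Mrc1, Cd163 and Mertk were the lowest, from 0.129 to 0.212 RPKM in depolarized and from 0.130 to 0.35 RPKM in polarized cells.

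**Figure D4:**
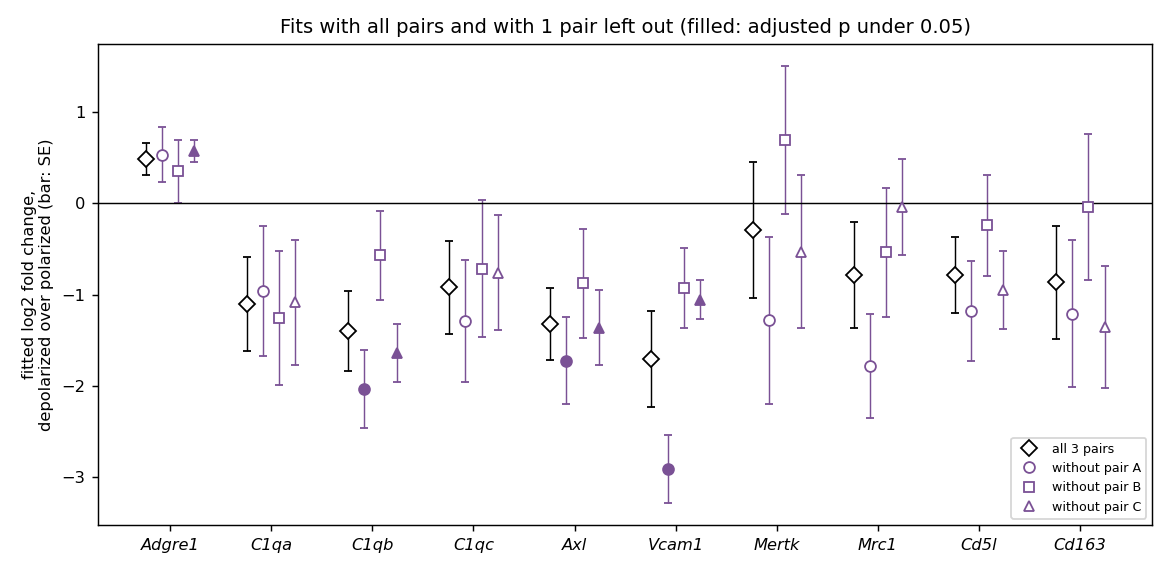
Fitted log2 fold change of depolarized over polarized cells with its standard error for each gene with all 3 pairs and with 1 pair left out, filled where the edgeR adjusted p is under 0.05. No symbol is filled with all pairs or without pair B; C1qb, Axl and Vcam1 are filled when pair A or pair C is left out, and Adgre1 when pair C is.

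Which members were called depended on the pair that was left out. Without pair A, C1qb (log2 fold change -2.04, edgeR adjusted p 0.000586), Axl (-1.72, 0.0326) and Vcam1 (-2.92) were called lower in depolarized cells, in a fit that called 0.249% of genes higher and 0.737% lower. Without pair C, C1qb (-1.65, edgeR adjusted p 2.80e-05), Axl (-1.36, 0.0151) and Vcam1 (-1.06, 7.68e-05) were called lower, among 5.13% of genes. Without pair B, where 0.0895% of genes were called higher and 0.358% lower, 0 members were called, every member had an edgeR adjusted p of 1.0, and C1qa, C1qb and C1qc were fitted at -1.25, -0.57 and -0.72. With no filter on low counts, C1qb, Axl and Vcam1 were called lower, in a fit that called 0.227% of genes higher and 0.437% lower. The depolarized library of pair B is also the 1 library whose title reads run 1 where the others read run 2, so the run label and the population cannot be told apart within that pair. Fits without a pair rest on fewer residual degrees of freedom. In these fits and in the fit with no low-count filter, the p-values are those of a normal distribution for fold change over SE. The spread of the single gene then hardly enters, so calls from these fits are less cautious than calls with all pairs and the filter.

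Other genes that mark macrophages were spread to both sides of 0. Of 28 such genes 18 were tested, 0 were called, 11 were fitted above 0 and 7 below, and the median log2 fold change was 0.13, beside -0.00 over all 9971 tested genes and -0.89 over the 10 members. Of the 18, 5 had an unadjusted p under 0.05, against 6.58% of all genes. Named after their values were seen, Itgax and Apoe were fitted at 1.06 and 0.84 and Lyve1 at -1.12 (edgeR adjusted p 0.133, 0.397 and 0.401). Summed over the list, the level was 2778 to 2979 CPM in depolarized and 2302 to 2534 CPM in polarized libraries, but most of it came from Slc40a1, the iron exporter ferroportin, Lgals3, Cd68, Hmox1, Selenop and Csf1r, which other cells also express. Lgals3, Hmox1 and Selenop are named after their values were seen. The receptor for the macrophage growth factor, Csf1r, was on the side of Adgre1: it was at 168, 166 and 157 CPM in the depolarized libraries A, B and C, against at 112, 102 and 105 CPM in the polarized ones, with a fitted log2 fold change of 0.55 ± 0.17 (SE, edgeR adjusted p 0.351). Slc40a1 lay at a fitted 0.45 ± 0.18 (SE, edgeR adjusted p 0.631) and Cd68, a lysosomal glycoprotein, at 0.31 ± 0.18 (SE, edgeR adjusted p 0.883), both above 0 in 3 of 3 pairs. Spic, a transcription factor of iron-recycling macrophages, was on the side of the C1q genes, with 22, 21 and 19 counts in the depolarized libraries A, B and C, against 22, 82 and 26 counts in the polarized ones, again highest in the polarized library of pair B (log2 fold change -0.93 ± 0.48, SE, edgeR adjusted p 0.834). Siglec1, the adhesion receptor of marrow and lymph node macrophages, had 5 counts over the depolarized and 19 over the polarized libraries, Timd4, a receptor for dying cells, had 8 and 17, and both stayed below the filter. Fcgr1, a high-affinity antibody receptor, had 11, 25 and 51 counts in depolarized and 14, 24 and 31 in polarized libraries, with a fitted log2 fold change of 0.12 ± 0.46 (SE, edgeR adjusted p 1.0). Clec4f, which marks liver macrophages in mice, had 0 counts in all 6 libraries.

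Among the complement genes, the partners of C1q in the C1 complex had few counts. C1s1 had 0 counts in all 6 libraries, C1ra had 19 counts over the depolarized and 33 over the polarized libraries, and the C1 inhibitor gene Serping1 had 1 and 0. Of 27 complement components, receptors and regulators 14 were tested, of which 0 were called higher and 1 was called lower. Over all genes tested, 0.0802% were called higher and 0.241% lower. Of the 14, 8 were fitted above 0 and 6 below, and the median log2 fold change was 0.04. The gene called lower was Fcnb, a ficolin of early neutrophil stages, with a log2 fold change of -5.17 (SE 0.46, edgeR adjusted p 1.17e-05). Fcna, the ficolin of macrophages and likewise picked with its values known, had 30, 45 and 21 counts in depolarized and 35, 102 and 31 in polarized libraries A, B and C (log2 fold change -0.77 ± 0.39, SE, edgeR adjusted p 0.793). The list of dead-cell uptake receptors, bridging ligands and transducers had 14 of 25 members tested, 0 called and a median of -0.02.

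Markers of other cell types were counted beside the members, and their part in the differences was not tested. Eosinophil genes, of which 0 of 8 tested were called, summed to 75.8, 211 and 61.3 CPM in the depolarized libraries A, B and C, against to 52.1, 496 and 208 CPM in the polarized ones, so they too were highest in the polarized library of pair B, and none of the 9 was at 0 in all libraries. Within that list, and named after their values were seen, the granule protein genes Epx and Prg2 had log2 fold changes of -2.17 and -1.37 (edgeR adjusted p 0.123 and 0.464), while the surface receptor genes Siglecf and Ccr3 had 0.59 and 0.66 (edgeR adjusted p 0.603 for both), above 0 in 3 of 3 pairs. Of 13 tested genes of the early neutrophil stage, 9 were called lower, against 0.241% of all genes. Genes of this stage summed to 8311, 11931 and 4769 CPM in depolarized and to 12117, 23303 and 17855 CPM in polarized libraries A, B and C. Myeloperoxidase (Mpo), the main enzyme of their granules, was lower by a log2 fold change of -5.30 ± 0.29 (SE, edgeR adjusted p 1.96e-08). Elane and Prtn3, further granule proteases called in that list, had log2 fold changes of -5.66 and -3.55. Monocyte genes (0 of 9 tested called) summed to 1022 to 1118 CPM in depolarized and 1069 to 1347 CPM in polarized libraries. Of the monocyte genes tested, 8 had an unadjusted p under 0.05, as had 6 of the eosinophil genes, against 6.58% of all genes. Among the monocyte genes 5 were fitted above and 4 below 0, and the median log2 fold change was 0.42. Far below that median, and named after their values were seen, were Ccr2 at -3.22 and Irf8 at -2.19 (edgeR adjusted p 0.139 and 0.212). Both rest on few counts. Ccr2 had 1, 0 and 9 counts in depolarized and 30, 25 and 22 in polarized libraries A, B and C. Irf8 had 4, 3 and 8 against 20, 20 and 24. Csf1r, which is also in the monocyte list, was fitted on the other side of 0, at 0.55. Erythroid genes (0 of 7, with Epor at 0) summed to 34.4 to 101 and 42.6 to 67.6 CPM, and dendritic cell genes (0 of 7) to 39.6 to 62.2 and 42.2 to 69.1 CPM. B and plasma cell genes (0 of 9) summed to 510.4 to 1246 CPM in depolarized and 555 to 653 CPM in polarized libraries. T and NK cell genes summed to 16.7 to 23.4 CPM in depolarized and 24.2 to 29.2 CPM in polarized libraries. Of 3 tested, 1, Nkg7, was called lower (log2 fold change -4.65 ± 0.47, SE), against 0.241% of all genes. Nkg7, part of these sums, was at 0.0491, 0.0521 and 0.710 CPM in depolarized libraries A, B and C. In the polarized ones Nkg7 was at 2.17, 2.64 and 11.7 CPM. The other 2 were fitted above 0, and the median log2 fold change of the list was 0.004. Of the stroma and endothelium genes, with 0 of 2 tested called, Pdgfra, Cdh5 and Emcn were at 0 in all libraries, and the sum was 8.44 to 10.8 CPM in depolarized and 7.34 to 11.7 CPM in polarized libraries. For the mature neutrophil list (0 of 12) the sum was 167267 to 187677 and 187180 to 228033 CPM, and Ly6g, the surface marker of mouse neutrophils, was at 367, 398 and 336 CPM in depolarized and 361, 536 and 484 CPM in polarized libraries A, B and C.

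The genes with the pattern most like Adgre1 and most like C1qb over the 6 libraries were sought among 7487 other genes with a mean log2 CPM of at least 1. For Adgre1 they were Ipo7, a nuclear import receptor (r = 0.99), G3bp2, a stress granule protein (0.99), Zfp597 (0.99), Ubap2l (0.99) and Adam17, a protease that sheds surface proteins (0.99). Zfp597 had the largest difference of these, at 21.6, 19.1 and 18.1 CPM in depolarized and 17.2, 11 and 13.4 CPM in polarized libraries A, B and C. For C1qb they were Dnajb14 (r = 0.99), Znrf1 (0.97), Rps6ka2 (0.96), Cers5 (0.95) and Gm20492 (0.95). Dnajb14, a co-chaperone gene, was at 7.11, 6.15 and 6.68 CPM in depolarized and 8.02, 11 and 7.19 CPM in polarized libraries A, B and C, so its range was far narrower than that of C1qb. These are the highest of 7487 correlations over 6 libraries and carry no test.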

How the data were processed

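RNA of sorted cells was sequenced after low-input SMARTer cDNA synthesis. Per the submitters' processing notes, the tools were bcl2fastq, STAR 2.0.4b, Subread and featureCounts 1.45, with the GRCm38 build. The sources used here do not give the strand setting, the treatment of multi-mapping reads or the annotation release. The authors deposited whole-number counts per gene, with no normalization. The deposited CPM equal these counts scaled to the library total (largest difference 4.80e-10), and the deposited RPKM equal that CPM per kilobase of listed exon length. Symbols were matched for 40254 of 41388 genes. In GENCODE M21, Vcam1 shares 0.688% of its exon bases with Gm43109 on the opposite strand and the other members share none.

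Counts were analysed with edgeR 4.0.16 in R 4.3.3: filterByExpr by group, TMM factors, the quasi-likelihood test on replicate code and group (2 residual degrees of freedom), fold changes as depolarized over polarized, and calls where the Benjamini-Hochberg adjusted p was under 0.05. The approximate standard error is the size of the fold change over the square root of its F statistic. The fit was tested on simulated data, with changes placed only in more abundant genes and no difference between pairs. The C1q genes lie below that level, so the simulation does not show how the fit behaves for them. Log2 CPM, TMM-scaled with a prior count of 2, gave the differences within pairs and the correlations. DESeq2 1.42.0, other filters and scalings, a fit without the block and fits without 1 pair were alternatives. Pairing comes from the series' design text, and deviations from the group means correlated at r = 0.08, 0.27 and 0.03 across genes within pairs A, B and C. The series calls the pairs biological replicates, but no source says whether libraries came from separate animals. The p-values therefore measure the spread between libraries, and how much of it is technical is not known. Members and lists were chosen with earlier results of these data known. Genes named were the members, up to 4 called genes per list, the 5 genes most correlated with Adgre1 and with C1qb, and 15 context genes. Genes outside this rule were named after their values were seen, among them list members at 0 in all libraries and the genes so marked in the text.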

Additional observations from a re-analysis of the deposited data

How the results depend on the processing

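Over 7 other settings and 3 fits with 1 pair left out, all members but Mertk kept the sign of their fold change wherever they were fitted. Mertk was fitted at -1.28 to 0.70 with 1 pair left out, the positive value without pair B. With no replicate block 0 genes were called higher and 0 lower over all genes and 0 in the lists, and 511 genes had an unadjusted p under 0.05 (656 with the block), and DESeq2 with the replicate block called 16 higher. Without a filter on low counts 50 genes were called higher and 96 lower, among them the members C1qb (edgeR adjusted p 0.00382), Axl (0.0434) and Vcam1 (9.03e-07), 3 in all, and 3 higher and 16 lower in the other lists. The stricter filter (at least 1 CPM in all 6 libraries) kept 5 members, called 0 of them, and called 5 genes higher and 3 lower, with 3 lower in the other lists. With library totals in place of TMM factors, which moved the median of all genes to 0.06, 0 were called higher and 6 lower, with 6 lower in the other lists. Leaving out a pair gave 9 to 500 genes higher and 36 to 518 lower, 0 to 1 members higher and 0 to 3 lower, and 1 to 17 genes of the other lists higher and 13 to 27 lower (all pairs 0 and 10). The cause of these shifts was not tested. The correlations of C1qa, C1qb and C1qc with Adgre1 stayed below 0 on log2 of the deposited CPM plus 0.5 and did not pass after adjustment, with C1qc at r = -0.86 (exact permutation p 0.0222, adjusted 0.1). Depth limits C1qa, C1qc, Mertk and Cd163 most, which have the fewest counts.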
